A study of Homo sapiens with 16 samples.

Results

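The chromatin sites of ZBTB7A in the K562 line were compared with those in HUDEP-2 cells. The members were all ZBTB7A regions of both lines on the standard chromosomes other than 11, with identical intervals counted once. They numbered 50914 of the 87066 rows in the 4 deposited peak lists, with 16332 regions in K562 and 34582 in HUDEP-2. A region is a stretch of genome that the authors called as enriched in chromatin immunoprecipitation with sequencing (ChIP-seq). A region was counted as shared when a region of the other line overlapped it by 1 bp or more.

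ZBTB7A is a zinc-finger protein with a POZ domain that represses the fetal γ-globin genes in adult erythroid cells and recruits corepressor complexes. It also acts in B cells, in metabolism and in cell survival during erythroid maturation. K562 is an erythroleukaemia line derived from chronic myeloid leukaemia that makes embryonic and fetal rather than adult globin. HUDEP-2 is an immortalised erythroid progenitor line from cord blood that makes mostly adult globin.

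K562 cells, with no modification named in the labels, were grown in RPMI with fetal calf serum, and their list combined 4 ChIP libraries. The HUDEP-2 cells, called WT below, lacked the Gγ-globin gene HBG2, carried an unmutated γ-globin promoter at the remaining copy, and were grown with SCF, EPO, dexamethasone and doxycycline. Their list came from 1 ChIP library, and the sources used here do not say whether these cells were 1 clone. The same pair of ZBTB7A antibodies was used in both lines, and no chemical treatment beyond these growth media was named for either. Controls were called input in the sample names but immunoglobulin in the antibody field. As further references, the 195C>G list came from 1 ZBTB7A library of HUDEP-2 cells that also lacked HBG2 and carried a γ-globin promoter mutation, and the BCL11A list from 2 libraries of HUDEP-2 cells with tamoxifen-induced, V5-tagged BCL11A.

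The line, the growth medium, the HBG2 deletion, the number of libraries and the filtering over replicates differed together between K562 and WT, so these cannot be told apart in any difference below. Each line gave 1 list, so no error between replicates exists and no test was made. Intervals are exact Clopper-Pearson 95% intervals and cover counting error only, since neither regions nor genes are replicates, and the read depth is unknown. A gene or region missing from a list was not called there, which is not evidence that the protein was absent. The WT list gives the authors' signal for each region, from 15.0 to 381 with a median of 25.6. The K562 list gives no values, and its file order was taken as its rank. Along that order the shared proportion fell from decile 1 to decile 9, at 49.0%, and stood at 53.9% in decile 10, and the last 2 deciles held wider regions (median 490 bp) than deciles 5 to 8 (258 to 280 bp). Coordinates are hg38 positions counted from 1.

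Peak lists hold no expression, so the labelled lines were checked only through promoter regions of marker genes. Of 10 erythroid markers, 4 had a promoter region in K562 (KLF1, EPOR, TFRC and HBZ) and 8 in WT, among them KLF1, GATA1, EPOR and SLC4A1. Of 6 megakaryocyte markers 2 had one in each line. Of 4 myeloid markers 1 had one in K562 and 2 in WT, and of 3 lymphoid markers 1 in K562 and 2 in WT. Over all protein-coding genes, 33.3% had a promoter region in K562 and 45.4% in WT. With so few markers of each type, these counts do not establish the identity of either line.

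Promoters on which the comparison turned are printed here as 300 bases, from 250 before to 50 after the gene's start, 5′ to 3′ on the gene's own strand. They come from RefSeq (GRCh38.p14). Capitals mark exact matches to GACCC, the core letters of the ZBTB7A motif, on either strand (GGGTC on the printed strand is a match on the other). SRF, serum response factor (chr6:43171019-43171318, plus strand), and CXXC1, a CpG-binding subunit of histone methyltransferase complexes (chr18:50287643-50287942, minus strand), had the best-ranked promoter regions of genes bound in K562 only. S1PR4, a sphingosine-1-phosphate receptor (chr19:3178519-3178818, plus strand), had the best-ranked one bound in WT only. HBM, the μ-globin gene of the α-globin cluster (chr16:165728-166027, plus strand), is shown as the best-ranked globin promoter bound in 1 line only, a choice made after its values were seen. PELP1, a nuclear receptor coregulator (chr17:4704088-4704387, minus strand), had the best-ranked shared promoter region.
SRF: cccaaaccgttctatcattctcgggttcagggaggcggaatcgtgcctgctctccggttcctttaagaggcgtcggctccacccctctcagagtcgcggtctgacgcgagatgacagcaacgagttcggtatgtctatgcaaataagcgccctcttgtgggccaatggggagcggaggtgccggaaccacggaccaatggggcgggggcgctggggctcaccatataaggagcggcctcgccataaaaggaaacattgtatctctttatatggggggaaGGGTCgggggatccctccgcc
CXXC1: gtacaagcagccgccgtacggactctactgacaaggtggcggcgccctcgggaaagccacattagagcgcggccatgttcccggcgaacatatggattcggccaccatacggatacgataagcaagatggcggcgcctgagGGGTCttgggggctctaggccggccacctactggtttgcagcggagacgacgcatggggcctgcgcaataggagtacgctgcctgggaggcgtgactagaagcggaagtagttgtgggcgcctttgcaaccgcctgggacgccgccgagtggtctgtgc
S1PR4: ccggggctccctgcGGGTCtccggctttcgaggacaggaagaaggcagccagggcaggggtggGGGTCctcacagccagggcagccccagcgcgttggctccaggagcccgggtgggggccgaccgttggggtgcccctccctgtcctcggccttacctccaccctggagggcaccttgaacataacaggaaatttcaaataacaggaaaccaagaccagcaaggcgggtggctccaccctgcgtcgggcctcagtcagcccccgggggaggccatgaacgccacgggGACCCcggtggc
HBM: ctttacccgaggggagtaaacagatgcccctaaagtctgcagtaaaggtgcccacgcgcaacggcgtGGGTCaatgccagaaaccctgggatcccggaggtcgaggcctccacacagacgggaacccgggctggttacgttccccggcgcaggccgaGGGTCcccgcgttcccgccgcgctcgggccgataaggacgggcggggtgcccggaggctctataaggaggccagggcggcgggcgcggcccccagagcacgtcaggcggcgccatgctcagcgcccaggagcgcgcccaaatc
PELP1: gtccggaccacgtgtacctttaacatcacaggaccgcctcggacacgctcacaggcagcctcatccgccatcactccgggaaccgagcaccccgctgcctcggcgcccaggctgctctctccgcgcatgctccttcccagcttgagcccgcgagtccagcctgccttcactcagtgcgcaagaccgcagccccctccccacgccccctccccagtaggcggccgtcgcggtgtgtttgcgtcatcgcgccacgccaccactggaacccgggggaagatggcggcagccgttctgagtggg
The K562 region covered 217 of the 300 bases at SRF and 300 at CXXC1, and no WT region reached either window. The WT region covered 300 bases at S1PR4 and at HBM, where no K562 region reached the window. At PELP1 both lines covered all 300 bases. SRF and CXXC1 held 1 match each, S1PR4 held 3, HBM held 2 and PELP1 held 0.

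Promoters were the sites that the lines shared most often. A promoter region has its summit, or its midpoint in K562, within 1 kb of the start of a protein-coding transcript. A gene-body region otherwise lies inside such a transcript, and the rest are distal. Over all classes 62.5% of K562 regions were overlapped in WT and 35.9% of WT regions were overlapped in K562. At promoters 73.2% of K562 regions (72.2 to 74.2%, 5303 of 7242) were shared, against 53.6% in gene bodies (52.0 to 55.1%, 2186 of 4082) and 54.4% of distal regions (53.0 to 55.7%, 2722 of 5008). From the WT side the shares were 53.0% at promoters (52.2 to 53.9%, 6653 of 12542), 22.7% in gene bodies (21.9 to 23.5%, 2540 of 11180) and 29.5% of distal regions (28.7 to 30.4%, 3209 of 10860).

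The WT list was longer and its regions wider, with a median width of 644 bp against 350 bp in K562. Gene bodies held 32.3% of WT regions and 25.0% of K562 regions, while promoters held 36.3% and 44.3%. In each of the 10 rank deciles of either list the promoter share was the highest of the classes, by 7.23 to 22.8 percentage points over the next class in K562 and by 16.1 to 21.6 in WT. In the strongest WT decile 83.4% of promoter regions were shared, against 59.7% in gene bodies and 65.2% of distal regions. In the weakest WT decile the shares were 33.3, 10.6 and 13.7%. With the WT list shortened to the length of the K562 list, 58.4% of K562 promoter regions were shared against 38.0% in gene bodies and 38.8% of distal regions.

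**Figure D1:**
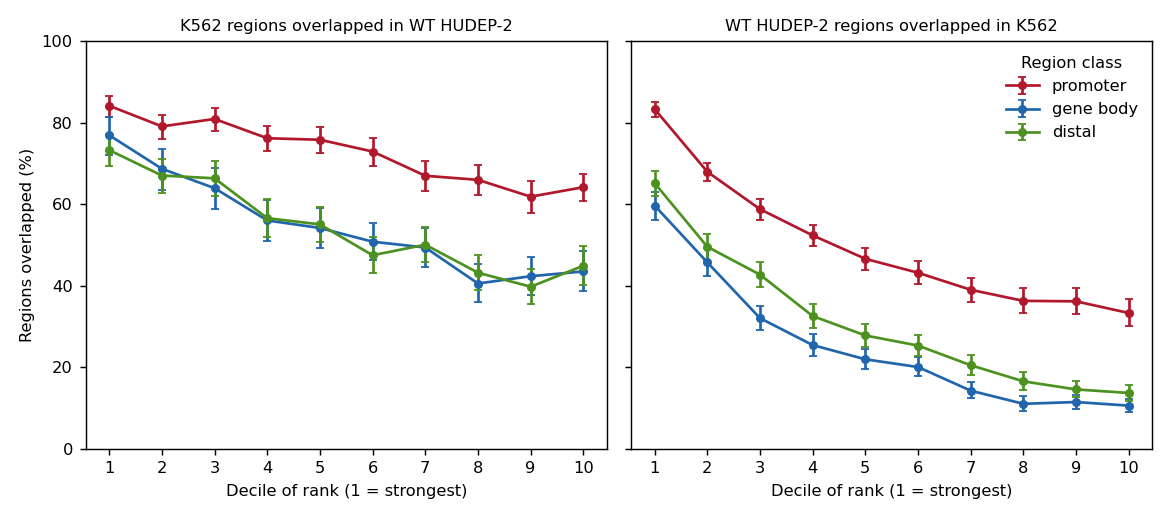
Share of regions overlapped in the other line (%), by rank decile of the list (1 is strongest) and region class, for K562 regions (left) and WT HUDEP-2 regions (right). Points are shares and bars exact 95% intervals for counting error. Promoters lie above gene bodies and distal regions in all 10 deciles of both lists, and the WT promoter share runs from 83.4% to 33.3%.

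Where regions were shared they usually marked the same spot. The K562 midpoint lay a median of 52 bp from the WT summit over 10211 shared K562 regions, and within 100 bp in 69.1% of them. The median distance was 66 bp at promoters, 41.5 bp in gene bodies and 43 bp at distal sites. Only 157 of the overlaps (1.54%) were shorter than 50 bp. Of the K562 regions with no overlap, 593 of 6121 (9.69%) had a WT region within 500 bp, and of the WT regions with none, 1231 of 22180 (5.55%) had a K562 region that near. Rank orders were related moderately, with a Spearman correlation of 0.458 at promoters, 0.364 in gene bodies and 0.393 at distal sites. Points of that correlation are regions of the same libraries, and it is given as a description.

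The best-ranked shared regions lay at distal sites and in gene bodies as well as at promoters. Rank 1 of both lists was 1 distal site on chromosome 6 (16031172 to 16031751 in K562), 97.6 kb upstream of MYLIP, a ubiquitin ligase that degrades the low-density lipoprotein receptor, with a WT signal of 381. A distal site 163 kb downstream of the start of MYC, the growth-promoting transcription factor, ranked 7 in K562 and 2 in WT, with a signal of 378 (chromosome 8, 127898367 to 127899240 in K562). Its summit and midpoint were 74 bp apart. Distal sites nearest to LARP1, which binds messenger RNAs of ribosomal proteins, and to KRBA1 ranked 9 and 15 in K562 and 5 and 26 in WT.

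Inside NPRL3, whose introns hold the major α-globin enhancers, a site on chromosome 16 (113311 to 113848 in K562) ranked 41 in K562 and 16 in WT, where its signal was 257. The other best-ranked shared gene-body sites lay in RBM19, a ribosome biogenesis gene (ranks 11 and 43), FAM46D (17 and 44) and ZMAT4 (27 and 48). At promoters PELP1 ranked 6 in K562 and 4 in WT, where its signal was 306. FAF2, which encodes a membrane protein of endoplasmic-reticulum degradation, ranked 8 and 36. LTV1, a 40S assembly factor, ranked 48 and 41. CIB2 and the potassium-chloride cotransporter gene SLC12A4 ranked 24 and 46 in K562 and 94 and 66 in WT.

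At the level of genes, 4823 of 18069 protein-coding genes (26.7%) had a promoter region in both lines. A promoter region was found in K562 only for 1201 genes (6.65%), in WT only for 3377 (18.7%), and in neither for 8668 (48%). With the WT list shortened to the K562 length, the order of the one-line counts turned, to 2048 genes in K562 only and 1823 in WT only. Counting any region in the gene or within 1 kb of it, 42% of genes had one in K562 and 55.4% in WT. Ranks of the best promoter regions had a Spearman correlation of 0.520 over the 4823 genes, again as a description. Among these genes 537 stood in the first 10% of both lists. In contrast 157 stood in the first 10% in WT and the later 50% in K562, and 22 the other way round. Of all genes, 1704 stood in the first 10% of the WT list and 836 in that of K562, so these counts have unlike bases. ACKR1, the Duffy antigen receptor, ranked 408 in WT (signal 133) and 8454 in K562. CBFA2T3, an ETO-family corepressor, ranked 982 in K562 and 25232 in WT (signal 19.2). Its best-ranked regions were at different places, 39 bp after the start in K562 and 586 bp after it in WT. Neither was overlapped by a region of the other line. ACKR1 and CBFA2T3 were chosen for the text after their values were seen.

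**Figure D2:**
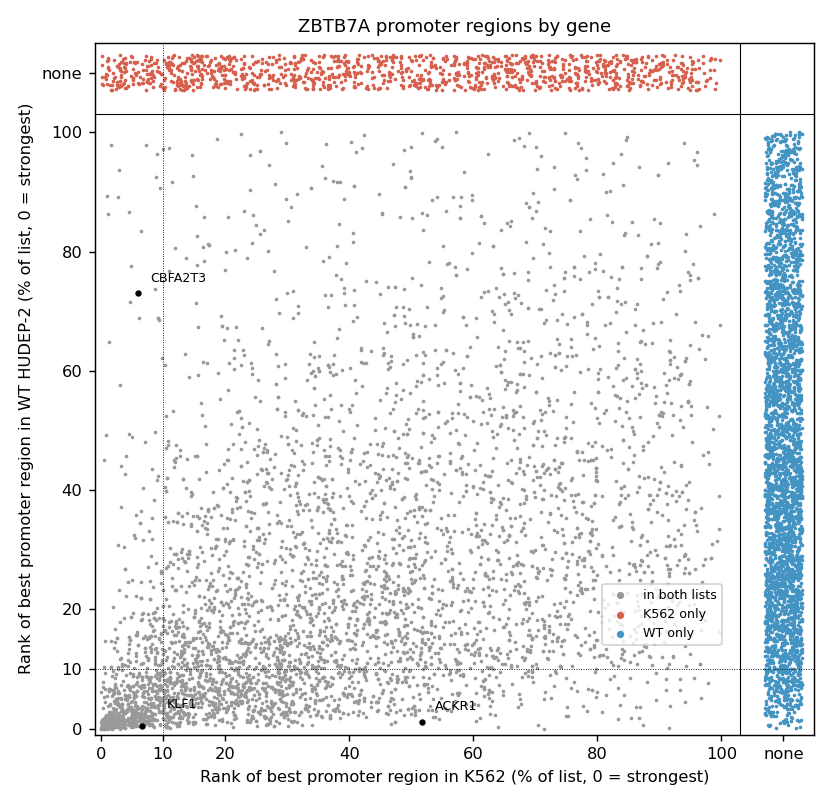
Rank of each gene's best ZBTB7A promoter region in K562 (x axis) and WT HUDEP-2 (y axis), as a percent of the list's length, with 0 the strongest; dotted lines mark the first 10%. Grey points are the 4823 genes bound in both lines, and the strips marked none hold the 1201 genes bound in K562 only (top) and the 3377 in WT only (right), spread at random across the strip for legibility.

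Genes bound strongly in 1 line only were those whose best promoter region stood in the first 10% of its list, was overlapped by no region of the other list, and belonged to a gene with no promoter region there. There were 119 in K562 (0.659% of all genes, 14.2% of the 836 bound strongly) and 224 in WT (1.24% of all genes, 13.1% of 1704). With a limit at the first 5% of each list the counts were 65 and 80, and at the first 20% they were 274 and 613. Just inside the K562 limit of rank 1633 stood LARP1B at rank 1605 and PCGF1 at 1592, and just outside CCDC8 at 1641 and RGL2 at 1650. In WT, NPY1R at rank 3449 (signal 63.3) was just inside and OSTM1 at 3459 (63.2) just outside.

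In K562, SRF stood at rank 21 (chromosome 6, 43171102 to 43171648). The nearest WT region was 10.3 kb away, and the BCL11A list had a region at the same place. CXXC1 stood at rank 29, with the nearest WT region at 20.8 kb. CHPF, a chondroitin synthesis gene, and TMEM198 shared the region of rank 33, and NYAP1, an adaptor of phosphoinositide 3-kinase in neurons, had rank 47. FAAP20 of the Fanconi anaemia core complex had rank 109, MYC rank 120 and LMNB1, which encodes lamin B1, rank 131. VARS, the valyl-tRNA synthetase, had rank 156. GTPBP2 and the spindle-checkpoint gene MAD2L1BP shared the region of rank 164. At MYC, the K562 region covered the promoter itself (chromosome 8, 127735864 to 127736524), 125 bp after the start, and the nearest WT region was 23.8 kb away. Thus the MYC promoter region was called in K562 only, while the distal site 163 kb downstream was among the strongest in both lines.

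In WT, S1PR4 stood at rank 20 with a signal of 250 (chromosome 19, 3178257 to 3179008), with a K562 region 0.674 kb away that did not overlap it. SYNGR1, a synaptic vesicle gene, had a signal of 240 (rank 32), and the nearest K562 region was 35.2 kb away. TMEM86B, a lysoplasmalogen hydrolase, had a signal of 191 (rank 96). NIPAL2, of a magnesium transporter family, stood at rank 182 and the methionine sulfoxide reductase MSRA at rank 197. MTAP, which salvages methionine, stood at rank 216 (signal 157) and C17orf64 at rank 223. The cyclin-dependent kinase inhibitor CDKN2D stood at rank 312 (signal 144), the zinc-finger gene ZNF605 at 360 and PTOV1 at 410 (signal 133). Each of these 10 genes was also bound at the same region in the 195C>G library.

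The regions of the one-line genes were also looked up in the other HUDEP-2 lists. Of the 224 strong WT genes, 208 (92.9%) had their region overlapped in the 195C>G library, and of the 119 strong K562 genes 1 had (0.840%). The 195C>G library shares line, antibodies and peak caller with WT. Because the WT list was used to choose these genes, the 195C>G shares partly follow from that choice. The BCL11A list, which comes from HUDEP-2 and was filtered over replicates like the K562 list, overlapped the region of 51 of the 119 (42.9%) and of 100 of the 224 (44.6%). Over all regions of the first decile, BCL11A regions overlapped 32.4% of the K562 regions not shared with WT (27.4 to 37.6%) and 40.5% of the shared ones (37.8 to 43.2%). From the WT side these shares were 44.6% and 45.5%. In the same decile, 195C>G regions overlapped 3.53% of the unshared K562 regions, 91.5% of the shared K562 regions and 93.5% of the unshared WT regions.

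Chromosome 6 held 27 of the 119 strong K562 genes (22.7%), beside 7.70% of all K562 regions. Of the 119 genes, 37 had a further copy on an alternate contig in the authors' annotation. Such contigs are extra sequences of the genome assembly that repeat part of a chromosome. Over all 734 genes with such a copy, 191 (26.0%) had a promoter region in K562, 129 (17.6%) in the BCL11A list, 26 (3.54%) in WT and 16 (2.18%) in 195C>G. Among the other 17335 genes these shares were 33.6, 24.9, 47.2 and 30.6%. VARS and KEL, the Kell blood group gene, are 2 of the strong K562 genes with such a copy. None of the 224 strong WT genes had one. Without those genes 82 strong K562 genes remained, among them SRF, CXXC1, MYC and LMNB1. Whether the alternate contigs account for any of these differences was not tested.

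Whole stretches of a chromosome were empty in 1 line. At least 8 K562 regions and no region of either HUDEP-2 ZBTB7A list fell in 15 stretches of 0.5 Mb or more. The largest number was on chromosome 6 from 28491945 to 33425901, which holds the major histocompatibility complex, with 175 K562 regions and 74 BCL11A regions. VARS lies in it. On chromosome 17 from 36862582 to 38800087 there were 32 K562 and 19 BCL11A regions, and on chromosome X from 19186 to 3815943 there were 23 and 11. HUDEP-2 BCL11A regions were thus called in stretches where neither HUDEP-2 ZBTB7A list held any. The stretches held 27 of the 119 strong K562 genes, and 92 remained without them. As the stretches were chosen for holding no WT region, this count partly follows from that choice. The share of all genes that lie in them is not given here.

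Other stretches held at least 20 WT regions and none in K562. The one with most WT regions ran on chromosome 9 from 19465138 to 32256343, with 73 WT, 38 195C>G and 9 BCL11A regions. MTAP and the cell-cycle inhibitor genes CDKN2A and CDKN2B lie there. On chromosome 8 from 85220736 to 86508471 there were 69 WT and 35 195C>G regions, and the carbonic anhydrase gene CA1, an erythroid gene chosen after its values were seen, lies there with a promoter signal of 127 in WT (rank 482). Stretches with 42 and 35 WT regions were on chromosome 18. Such stretches held 18 of the 224 strong WT genes, a count that partly follows from their choice as empty in K562. The share of all genes in them is likewise not given. DNA copy number of the lines was not analysed here.

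The share of each list on whole chromosomes was set beside all 3 HUDEP-2 lists. On 7 of 22 chromosomes the K562 share was below each HUDEP-2 list (2, 3, 8, 13, 14, 18 and 22), and on 7 it was above each (1, 4, 7, 10, 15, 20 and X). Chromosome 8 held 3.47% of K562 regions and 6.07% of WT, 6.34% of 195C>G and 5.90% of BCL11A regions. Chromosome 22 held 1.99% in K562 against 3.41, 3.52 and 3.54%, and chromosome 13 held 0.949% against 1.69, 1.82 and 1.81%. Chromosome 7 went the other way, with 6.23% in K562 against 4.50, 4.44 and 4.55%. Chromosome 19 held 9.66% of K562 and 11.5% of WT regions but 7.41% of 195C>G regions. The strong WT genes lay most often on chromosome 19 (43 of 224), chromosome 8 (26) and chromosome 22 (16).

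**Figure D3:**
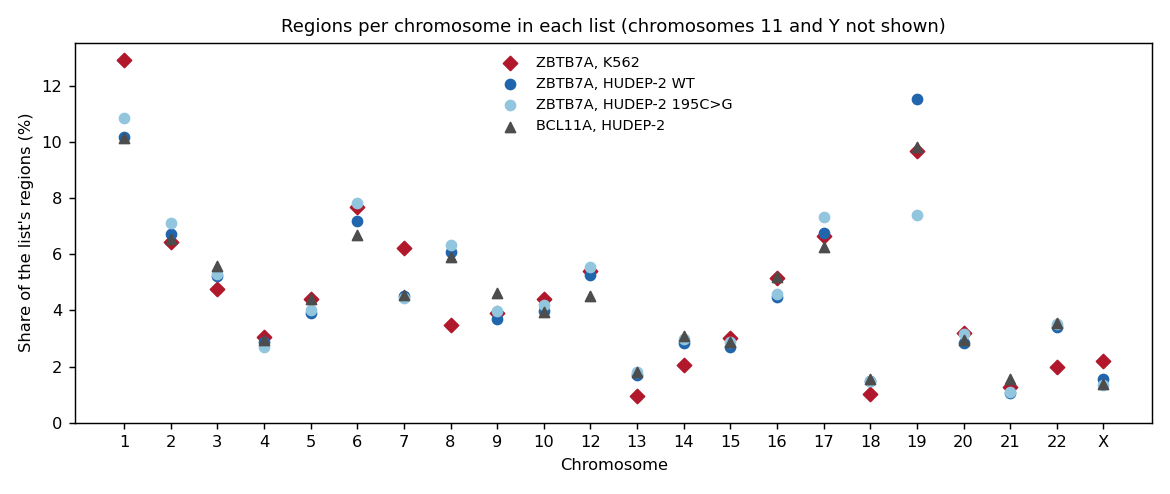
Share of each list's regions (%) on each chromosome, for ZBTB7A in K562 (red diamonds), ZBTB7A in WT (dark blue) and 195C>G HUDEP-2 (light blue), and BCL11A in HUDEP-2 (grey triangles). On chromosomes 8 and 22 K562 lies below all 3 HUDEP-2 lists, and on chromosomes 1, 7 and X above them.

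Overlap in windows of 5 Mb was set against the number that the rank deciles of the regions predicted. That prediction takes no account of region class or of how many regions the other list held in the window. Among K562 regions the largest gap was at 30 to 35 Mb of chromosome 6, where 22 of 176 regions were shared and 112 were predicted. At 135 to 140 Mb of chromosome 9, 19 of 116 were shared with 71.5 predicted, and at 0 to 5 Mb of chromosome 4, 10 of 84 with 51.4 predicted. Chromosome 19 had more than predicted at 10 to 15 Mb, with 196 of 236 shared and 151 predicted. Among WT regions the largest gap was at 0 to 5 Mb of chromosome 19, where 310 of 888 were shared and 358 were predicted. K562 regions of the same window were shared more often than predicted (246 of 318, with 205 predicted). The window held fewer K562 than WT regions, which limits how many WT regions could be shared. Also among WT regions, chromosome 22 at 20 to 25 Mb had 11 of 127 shared with 44.1 predicted, in a window with 30 K562 regions. At 50 to 55 Mb of chromosome 12, 100 of 192 were shared with 66.7 predicted.

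Strong regions outside promoters were unshared more often than strong promoter regions, and the gap was wider in WT. Of strong K562 regions, 15.8% at promoters (13.3 to 18.6%, 122 of 772), 23.0% in gene bodies (18.6 to 28.0%, 76 of 330) and 26.7% at distal sites (23.0 to 30.7%, 142 of 532) had no WT overlap. Of strong WT regions these shares were 16.6% (14.9 to 18.5%, 280 of 1685), 40.3% (36.9 to 43.8%, 328 of 814) and 34.8% (31.8 to 37.9%, 334 of 960). The unshared strong WT regions were overlapped in 195C>G in 92.5, 92.7 and 95.2% of cases by class, and the unshared strong K562 regions in 2.46, 5.26 and 3.52%. Because the WT list was used to choose these regions, the 195C>G shares partly follow from that choice. The same holds for the 195C>G overlap of the single sites named next.

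The strongest gene-body site of WT without K562 overlap lay in ANK1, which encodes ankyrin of the red cell membrane. It had a signal of 322, rank 3 in the whole list, on chromosome 8 from 41772581 to 41773247, 24.7 kb inside the gene. ANK1 held 25 WT regions and 3 K562 regions, and its promoter was bound in both lines (rank 1376 in K562, 137 in WT). A site 6.11 kb inside GYPC, the glycophorin C gene, had a signal of 186 (rank 108). The others were in CCDC88C (rank 63), PREX1 (86), MAP2K3 (109) and PTPRN (118), and all 6 were overlapped in both 195C>G and BCL11A lists. The strongest distal ones were nearest to SHISA7 (rank 45, signal 224), GTSCR1 (46), TPSAB1 (130), EFCAB1 (164), LGALS7B (195) and TSPOAP1 (205). Their distances from those starts were 1.1, 28.9, 4.2, 269, 2.0 and 9.5 kb. All but the one near LGALS7B were overlapped in 195C>G. The GTSCR1 site lies in a chromosome 18 stretch that is empty in K562.

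In K562 the strongest gene-body sites without WT overlap lay in MYT1 (rank 19), BCOR, a BCL6 corepressor (50), TMEM63B (54), ZFPM1, which encodes the GATA1 partner FOG1 (59), PDLIM7 (67) and ATG9B (72). The ZFPM1 site lay 2.37 kb inside the gene on chromosome 16 from 88455533 to 88456414. ZFPM1 held 13 K562 and 17 WT regions in all, so this was 1 site among many. Distal ones were nearest to the starts of PLPP7 (rank 18), MYOM2 (23), FGFRL1 (26) and TRIM7 (51), at 41.6, 689, 31.4 and 16.6 kb. The other distal ones were nearest to SKI, a corepressor of SMAD signalling (68, 1.02 kb upstream), and GFI1B, an erythroid repressor (77, 25.6 kb downstream of its start). None of these 12 regions was overlapped in 195C>G, and those at MYT1, BCOR, TMEM63B, ZFPM1, PLPP7, SKI and GFI1B were overlapped by a BCL11A region. The MYOM2 site lies in a stretch empty in both HUDEP-2 ZBTB7A lists.

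Some genes held many regions in 1 line and none in the other. CCDC88C, whose product modulates Wnt and G-protein signalling, held 22 WT regions and 14 in 195C>G. MBP, known for myelin basic protein and with transcripts in blood cells, held 16, AGAP1 and ROBO2 14 each and the urea transporter gene SLC14A2 13. MBP, ROBO2 and SLC14A2 lie in stretches empty in K562. In K562 NPIPA1 held 13 regions, and CORO7, its readthrough CORO7-PAM16, CXXC5 and PPP1R18 held 7 each, of which CORO7 and CORO7-PAM16 share theirs. NPIPA1 belongs to a duplicated family, and its regions were counted over a span of 1413 kb that joins the copies annotated under this name, whereas CORO7 spans 62.4 kb. NPIPA1 and PPP1R18 lie in stretches empty in both HUDEP-2 ZBTB7A lists.

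Gene lists were then read against all genes, of which 26.7% were bound in both lines, 6.65% in K562 only, 18.7% in WT only and 48.0% in neither. Erythroid transcription factor genes were bound in both lines in 19 of 29 cases, in K562 only in 5 and in WT only in 3. The list also held TRIM58, which is not a transcription factor gene and was bound in both. Bound in both means a promoter region in each line, not always at the same place. At RUNX1, CBFA2T3 and TRIM58 neither line's best-ranked region was overlapped by a region of the other line. NFE2L2, the oxidative stress regulator, ranked 181 in K562 and 733 in WT (signal 113). TCF3, an E protein, ranked 97 and 1536 (signal 88.1), and KLF1, the erythroid activator, 1072 and 150 (signal 173). The best-ranked KLF1 regions were not at the same place, 965 bp after the start in K562 and 347 bp before it in WT. Each was overlapped by a region of the other line, so both places were called in both lines. MYC (rank 120), ZFPM1 (1241) and GATA2, the progenitor GATA factor (1502), had a promoter region in K562 only. GATA1, the master erythroid factor, had one in WT only, at rank 2427 with a signal of 73.4, although 2 K562 regions lay elsewhere in or near the gene. STAT5A had one in WT only at rank 29257.

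ZBTB7A itself was bound in both lines, ranking 1033 in K562 and 646 in WT (signal 117), with 3 and 16 regions in or near the gene. BCL11A, the other γ-globin repressor, had a WT promoter region at rank 9406 (signal 37.8) and 8 WT regions in or near the gene, against none in K562.

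In the α-globin cluster 2 genes had a promoter region in K562 and 4 in WT, beside 33.3% and 45.4% of all genes. The WT list was also the longer one. Of its 5 genes, HBM was bound in WT only with a signal of 130 (rank 440), and its region was overlapped in the 195C>G and BCL11A lists. HBA1, the adult α-globin gene, was bound in WT only at rank 18879 (signal 24.1). HBZ, the embryonic ζ-globin gene, was bound in both lines, ranking 4646 in K562 and 11910 in WT (signal 32.8). HBQ1, the θ-globin gene, was bound in both at rank 819 and 836 (signal 109). HBA2 had no promoter region in either. HBA1 and HBA2 are near-identical copies whose reads can be split, so their values are uncertain.

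Heme and iron genes were bound in both lines in 16 of 27 cases, in K562 only in 4 and in WT only in 3. The transferrin receptor gene TFR2 ranked 322 in K562 and 100 in WT (signal 190.0), the mitochondrial transporter gene ABCB10 522 and 81 (signal 199), and the heme synthesis gene ALAD 1271 and 469 (signal 127). FECH, which inserts iron into the heme ring, was bound in WT only at rank 919 (signal 105), with a K562 region 1.23 kb from its own. HEBP1 and ALAS2, the erythroid enzyme of the first step of heme synthesis, were bound in WT only at ranks 11782 and 14657. TFRC, the main transferrin receptor (rank 2664), ABCB6 (4873) and TMEM14C (5525) were bound in K562 only.

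Red cell membrane genes had 14 of 30 members bound in both, 4 in K562 only and 8 in WT only. ANK1 and GYPC were bound in both, GYPC ranking 1778 in K562 and 507 in WT (signal 125), as was the mechanosensitive channel gene PIEZO1 at 713 and 3658. In WT only stood SLC4A1, the band 3 anion exchanger (rank 2791, signal 69.3), with a K562 region 1.14 kb from its own. The glycophorin gene GYPE (4400), also in WT only, has close paralogs, so that its reads can be split. In K562 only stood KEL (rank 211), which has an alternate copy, the adducin gene ADD1 (1904) and BCAM (3392).

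Ribosomal protein genes were bound in both lines in 21 of 60 cases, in WT only in 19 and in K562 only in 4. Among the shared ones RPL28 ranked 132 in K562 and 287 in WT (signal 146), and RPLP0 ranked 201 and 494 (signal 126). The best-ranked in WT only were RPL18 (4735, signal 54.6) and RPL13A (5020), and 7 of the 19 lay on chromosome 19. Of the 19, 4 were bound in 195C>G, and of the 21 shared ones 17. Over all genes 45.8% of those bound in WT only and 75.6% of those bound in both were bound in 195C>G. In K562 only, RPL10A stood at rank 1111. Many ribosomal protein genes have processed pseudogenes, which can take reads from them.

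Apoptosis and cell-cycle genes were bound in both lines in 17 of 28 cases, in WT only in 6 and in K562 only in 1. The shared ones were led by the survival gene BCL2L1 (484 and 335, signal 142), the p53 target BBC3 (715 and 238, signal 154) and the p53 regulator MDM2 (1150 and 412, signal 133). In WT only stood the kinase inhibitors CDKN2D, CDKN2A (rank 965, signal 104) and CDKN1B (rank 2969, signal 67.6). CDKN2A lies in the chromosome 9 stretch that is empty in K562, and CDKN2D had a K562 region 3.10 kb away. In K562 only stood the proapoptotic gene BCL2L11 (rank 10893).

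Serum response genes, listed because K562 was grown with serum, were bound in both lines in 12 of 30 cases, in K562 only in 6 and in WT only in 5. SRF, MYC and the immediate early gene EGR1 (rank 194) led the K562-only genes, and the WT-only genes were led by KLF2 (rank 6434), ACTG1 and FOS (14416). VCL, which encodes the adhesion protein vinculin and is a target of SRF, ranked 366 in K562 and 2439 in WT. Genes of EPO and KIT signalling, both supplied to HUDEP-2, were bound in both lines in 11 of 27 cases and in 1 line only in 5 each. Each 5 made 18.5% of the list, beside 6.65% of all genes in K562 only and 18.7% in WT only. SOCS1, a feedback inhibitor of cytokine receptors, ranked 583 and 284 (signal 146). PTPN6 (rank 3470) and GAB1 (4544) were bound in WT only, and SPRED2 (2365) and the kinase gene PIM1 (3746) in K562 only. Of 19 glucocorticoid response genes, 7 were bound in both, 2 in K562 only and 3 in WT only, the latter led by CEBPD (rank 2015, signal 79.2). SGK1 ranked 1841 in K562 and 1280 in WT.

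Antigen presentation genes had 3 of 29 members bound in both, 8 in K562 only and 1 in WT only. MICB, a stress-induced ligand of natural killer cells (rank 2368), IRF1 (3003) and MICA (5366) led the K562-only genes. Of the 29, 17 have an alternate copy, as do 5 of the 8, and the part of these copies in the count was not tested. Cancer-testis and oncofetal genes had 18 of 26 members bound in neither line, against 48.0% of all genes. CTCFL, the germ-line relative of CTCF (rank 240), HMGA1, an architectural chromatin protein gene (512), and HIC2 (13048) were bound in K562 only. Of 20 glycolysis genes, 11 were bound in both, 1 in K562 only (GAPDH) and 0 in WT only.

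Genes of other cell types were mostly bound in neither line, as were 48.0% of all genes. The counts were 14 of 20 megakaryocyte, 14 of 19 myeloid, 10 of 14 lymphoid and 14 of 19 liver and neuron genes.

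Promoter sequence was compared between groups in 14302 RefSeq windows of 300 bases, which matched 82.5% of the protein-coding genes outside chromosomes 8, 11 and Y. Genes were grouped here by whether a region overlapped the window itself. Windows bound in K562 only (841) had a median GC content of 69.0% and 30 CpG dinucleotides. Windows bound in both (2579) had 67.0% and 29, windows in WT only (2735) had 65.3% and 26, and windows in neither (8147) had 59.3% and 15.

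Exact matches on either strand were counted in these windows. GACCC occurred in 65.1% of windows bound in both (63.3 to 67.0%), in 61.4% of K562-only windows (58.0 to 64.7%), in 55.4% of WT-only windows (53.5 to 57.2%) and in 52.3% of all. GGGCGG, a GC-box of SP factors, occurred in 78.6, 81.5, 72.9 and 59.8% in the same order, and the GC content of the groups differed as given above, a difference whose part in these shares was not tested. CCGGAAG, an ETS motif, occurred in 24.6% of windows bound in both, 18.2% in K562 only, 20.5% in WT only and 14.4% of all. AAGATGGCG, a YY1 motif, occurred in 4.38, 2.38, 5.19 and 2.84%. AGATAA, bound by erythroid GATA factors, occurred in 4.38, 3.92, 4.28 and 7.26%, so it was rarer in all 3 bound groups than in all windows. CCACCC, a KLF motif, occurred in 39.0, 44.0, 36.3 and 37.3%, and TGTGGT, a RUNX motif, in 7.75, 7.49, 8.67 and 10.8%. GCATGCGC, an NRF1 motif, occurred in 5.93, 5.47, 6.51 and 4.36%. TGACTCA (AP-1 and NF-E2), GAGGAAGT (SPI1), TTCCNGGAA (STAT5) and ACANNNTGT (glucocorticoid receptor) were in at most 3.71% of all windows, and the composite of TAL1 with GATA, which contains AGATAA, in 0.252%. None of the other motifs contains another. A match shows only that the letters are in the window.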

How the data were processed

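ZBTB7A ChIP-seq regions were compared between K562 (4 ChIP and 4 control libraries, 1 combined list) and HUDEP-2 lacking HBG2 (1 ChIP and 1 control library). Samples were grouped by their titles. The submitters' processing notes list Trimmomatic 0.3.2 (read trimming), Bowtie2 2.2.9 (alignment), Bowtie, bedtools and Picard, with the build GRCh38/hg38. The authors deposited the K562 and BCL11A lists as regions kept by the irreproducible discovery rate (IDR) over replicates, going by the file names. The WT and 195C>G lists came from the caller SPP, again by their names. The caller of the K562 list is not known from the sources. The deposited WT and 195C>G lists hold, for each region, a signal computed by the authors, a summit and a false discovery rate given as −log10 (2.00 to 4.34 in WT). The deposited BCL11A list holds the authors' score per region. The deposited K562 list holds intervals alone, with no value. Read depth is unknown.

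Chromosome 11 was left out because the WT list uses a modified chromosome 11. Of 18200 K562 rows 811 were removed as identical intervals and of 36868 WT rows 402. Regions overlapping without being identical were kept apart. WT ranks follow signal and K562 ranks follow file order, whose meaning no source states. Transcript starts came from the authors' deposited annotation (18069 protein-coding genes). Overlap needed 1 bp, and a promoter region lay within 1 kb of a start. Strong means the first 10% of a list. Predicted overlap is the mean of the region's rank decile. Empty stretches were at least 0.5 Mb long with at least 8 K562 regions, or at least 20 WT regions. Calculations used Python 3.11.15, pandas 2.3.3, numpy 2.4.6 and scipy 1.17.1, and were tested on simulated data.

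The text names, per line, the 10 best-ranked strong genes bound at the promoter in 1 line only, the 6 strongest unshared gene-body and 6 distal regions, the 5 genes with most regions in 1 line, the best-ranked shared regions (6 promoter, 4 gene-body, 4 distal), up to 3 members per status of each of 16 gene lists (419 genes, 26 of them on chromosome 11), the α-globin genes, ZBTB7A and BCL11A. The members and lists were chosen with earlier results of these data known. Alternatives are given in the closing section. Some results that this rule names are not reported here.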

Additional observations from a re-analysis of the deposited data

How the results depend on the processing

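In 8 of 8 settings, the main one included, promoters had the highest shared proportion in both directions. The order of gene bodies and distal sites among K562 regions changed, with gene bodies above distal sites in 2 of 8. Shares follow in the order all, promoter, gene body, distal. With a reciprocal overlap of 50%, 35.7, 42.9, 29.0 and 30.8% of K562 and 18.9, 28.2, 11.7 and 15.7% of WT regions were shared. With the stronger 50% of each list, K562 shares were 60.6, 70.8, 51.9 and 51.3%, WT shares were 34.5% for all and 44.9% at promoters, and 2858 genes were bound in both. With WT cut to the K562 length, K562 shares were 47.3, 58.4, 38.0 and 38.8% and WT shares 50.8, 63.8, 36.5 and 44.3%, with 2048 genes in K562 only and 1823 in WT only, so the larger number of WT-only genes turned into a smaller one. With overlapping regions merged, WT shares were 33.1, 51.7, 21.2 and 27.6%. With all regions set to 400 bp, shares over all and at promoters were 61.7 and 71.9% in K562 and 34.7 and 50.8% in WT. With promoters within 2.5 kb, promoter shares were 70.4% in K562 and 49.7% in WT, and the WT gene-body share was 21.3%. Without genes that have an alternate copy, an alternative chosen after seeing the data, K562 shares were 64.4% over all, 75.4% at promoters and 56.1% at distal sites. Strong genes numbered 65 in K562 and 80 in WT at the first 5%, and 274 and 613 at the first 20%. They numbered 113 and 196 with no region of the other line within 5 kb, 118 and 208 when the 195C>G list was asked too, 92 and 206 without the empty stretches (also chosen after seeing the data), and 82 and 224 without alternate copies. Of 80 alternative values, 37 moved by less than their interval or 1.5 times and 43 by more. Leaving out a replicate was not run, since K562 is 1 combined list and WT 1 library. No paired analysis was possible because the compared lists hold no replicates.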
